A study of Mus musculus with 11 samples.

Results

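The genes described are 9 globin and red cell genes of the mouse: the embryonic globins Hbb-y, Hbb-bh1 and Hba-x, the adult globins Hbb-bt, Hbb-bs, Hba-a1 and Hba-a2, and the red cell genes Alas2 and Klf1. They were chosen by name, as the rows of the count table that carry these symbols, so 9 of 47517 gene rows were taken. All 9 passed the filter on low counts, which kept 15821 genes. The libraries were made from ribosomal RNA-depleted total RNA of forelimb buds of C57BL/6 background embryos at E10.5. The 5 control embryos were Gmnn +/f; Prx-Cre and the 6 mutant embryos were Gmnn f/f; Prx-Cre, so controls carried the same Cre transgene and 1 floxed allele. Gmnn encodes Geminin, which inhibits Cdt1 in replication licensing. The Prx-Cre transgene drives Cre recombinase in limb bud mesenchyme, not in blood. According to the labels the embryos were matched by litter and by somite number, and the somite numbers themselves are not given in the sources used here.

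The embryos came from 4 litters, called A to D here. Litter A is the source of 4 libraries (control 1, control 2, mutant 1 and mutant 2). Litter B is that of control 3 with mutant 6, litter C that of control 4 with mutant 5, and from litter D come control 5, mutant 3 and mutant 4. Total counts were 14721181 to 19733288 per library. Gmnn was 139 to 239 CPM (counts scaled to library size) in controls and 99.5 to 138 CPM in mutants, a log2 fold change of -0.67 (SE 0.10, adjusted p = 0.0291, edgeR quasi-likelihood test with Benjamini-Hochberg adjustment). The mesenchyme genes Prrx1 (199 to 313 CPM) and Tbx5 (64.8 to 123 CPM) were present in each of the 11 libraries, as were the red cell genes Gata1 (8.62 to 19.98 CPM) and Slc4a1 (20.4 to 48.3 CPM). Mutant 2, of litter A, stood apart from the other 10 libraries in the globins, so results that rest on it are given with and without it. Of the mesenchyme genes examined, mutant 2 was the lowest library for Tbx5 (64.8 CPM), Meis1 (96.7 CPM) and Fgf10 (15.6 CPM). For Prrx1, Meis2 and Msx1 it was above the lowest library.

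Red cells of the early mouse embryo arise in the yolk sac and circulate as nucleated primitive erythroblasts, which reach the limb bud through its blood vessels. Haemoglobin pairs alpha-type with beta-type chains: primitive cells make mainly the embryonic chains, and the definitive cells that come later from the fetal liver make the adult chains. Within the primitive lineage the embryonic beta-type genes are themselves used in turn, with Hbb-bh1 prominent earlier and Hbb-y later, and Hba-x gives way to the adult alpha genes. The embryonic to adult ratio is therefore read as a measure of stage, and the share of all globins in a library as a measure of its blood content.

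The beta-type genes lie on the minus strand of chromosome 7 (mm10), in the order Hbb-bt (103812524 to 103813996), Hbb-bs (103826534 to 103828096), Hbb-bh1 (103841636 to 103843164) and Hbb-y (103851745 to 103853240). The alpha-type genes lie on the plus strand of chromosome 11, in the order Hba-x (32276400 to 32278116), Hba-a1 (32283511 to 32284465) and Hba-a2 (32296489 to 32297298). Alas2 is on the plus strand of chromosome X (150547375 to 150570638) and Klf1 on the plus strand of chromosome 8 (84901928 to 84905295). Counts were summed over the exons of each gene.

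The adult copies are nearly the same sequence, which bears on their counts. In the GENCODE M21 transcripts the coding sequences of Hbb-bt and Hbb-bs differed at 1 of 444 bases, and 58.3% of the 50-base windows of the Hbb-bt transcript were also found in Hbb-bs. The only differing base is in capitals in coding bases 385 to 444, shown here because it is all that a read inside the coding sequence could use to tell the copies apart.
Hbb-bt: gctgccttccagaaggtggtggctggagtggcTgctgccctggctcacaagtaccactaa
Hbb-bs: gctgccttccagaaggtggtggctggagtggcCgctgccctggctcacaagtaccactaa
The embryonic beta-type pair is far less alike: Hbb-y and Hbb-bh1 differed at 105 of 444 coding bases and shared no 50-base window. Coding bases 26 to 85 of this pair are shown for contrast, with the 25 differing bases in capitals.
Hbb-y: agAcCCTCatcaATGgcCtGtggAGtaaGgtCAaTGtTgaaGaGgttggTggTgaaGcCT
Hbb-bh1: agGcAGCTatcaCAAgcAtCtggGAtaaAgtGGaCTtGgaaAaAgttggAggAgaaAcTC
Hba-a1 and Hba-a2 differed at 1 of 429 coding bases and shared 67.5% of the 50-base windows of Hba-a1, whereas Hba-x and Hba-a1 were 65.0% identical with no shared window. The counting required a mapping quality of at least 10, and a read that fits 2 copies equally well usually scores below such a minimum. How many adult globin reads were lost in this way was not tested. The split between adult copies is uncertain, and ratios of embryonic to adult counts are compared between libraries and not read as absolute proportions of globin mRNA.

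The embryonic and adult alpha globins moved together across libraries and the adult beta genes less so, and promoters of both kinds are shown, as the 120 bases before the RefSeq start in GRCm38.p6. RefSeq promoters were found for 8 of the 9 genes. The capitals mark CACCC, the core of the sites bound by Klf1, CCAAT, the GATAA core bound by Gata1, and TATAA, each searched on both strands. An embryonic and an adult gene are given for each locus: Hbb-y (chr7:103853208-103853327, minus strand), Hbb-bs (chr7:103827929-103828048, minus strand), Hba-x (chr11:32276480-32276599, plus strand) and Hba-a2 (chr11:32296372-32296491, plus strand). The gene bounds given above are those of the count table and start further upstream than RefSeq's for these genes.
Hbb-y: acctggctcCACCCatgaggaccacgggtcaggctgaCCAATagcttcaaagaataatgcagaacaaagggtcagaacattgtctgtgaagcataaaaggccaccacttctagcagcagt
Hbb-bs: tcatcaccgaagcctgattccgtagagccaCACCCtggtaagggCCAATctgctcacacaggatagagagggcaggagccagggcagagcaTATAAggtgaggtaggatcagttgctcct
Hba-x: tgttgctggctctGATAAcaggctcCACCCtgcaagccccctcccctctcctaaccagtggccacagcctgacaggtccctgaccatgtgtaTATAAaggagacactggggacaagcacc
Hba-a2: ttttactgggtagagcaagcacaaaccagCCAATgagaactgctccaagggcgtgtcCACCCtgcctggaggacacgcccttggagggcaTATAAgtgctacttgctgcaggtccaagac
Over the 250 bases before the start, CACCC and GATAA each occurred in 6 of the 6 globin promoters found, against 51.3% and 23.0% of 27025 promoters. CCAAT occurred in 5 of 6 against 34.5%, and TATAA in 5 of 6 against 23.5%. The Hba-a1 and Hba-a2 promoters were identical over 247 bases. These matches describe the letters only.

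None of the 9 genes passed the test between genotypes at an adjusted p of 0.05, where 345 of all 15821 genes did (2.18%, by edgeR's quasi-likelihood test, blocked by litter, with Benjamini-Hochberg adjustment). That total is unstable, at 16 genes without the block and 1 to 850 with a library left out (lowest without control 4 or mutant 5, highest without control 5), and 0 of the 9 were called in each of these fits. DESeq2 (7.55% of genes called) and limma-voom (2.77%) also called 0 of the 9. By edgeR 2 of the 9, Hbb-bt and Hbb-bs, had an unadjusted p under 0.05, against 21.4% of all genes. DESeq2 and limma-voom gave 0 such genes. With no filter on low counts edgeR called 8 of the 9 and 5.35% of 29256 genes, in a fit that gave all genes the spread of the common trend (infinite prior degrees of freedom, beside 6.15 with the filter). No gene of the 9 had control and mutant libraries without overlap, against 2.59% of all genes. The log2 fold changes were above 0 for 8 of the 9, with a median of 0.62 beside 0.0038 over all genes, and 5 were higher in mutants in each of the 4 litters, as were 12.6% of all genes. In litter A that count rests on mutant 2. For each of the 5, mutant 1 was above control 1 but below control 2 and below the mean of these controls. Without mutant 2 the log2 fold changes of the 9 genes ran from -0.02 (Klf1) to 0.38 (Hbb-bt). With all libraries the adjusted p-values of the 9 ran from 0.182 to 0.972 (edgeR). In bulk tissue, a difference in the number of red cells and one in RNA per red cell cannot be told apart.

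Hbb-y, the embryonic epsilon-type beta chain, was the most abundant globin gene. It was at 6118, 14509, 6307, 7131 and 9791 CPM in controls 1 to 5. In mutants the lowest level was 7129 CPM (mutant 1), the median 12514 CPM and the highest 25638 CPM (mutant 2). Control 2 was above all mutants but mutant 2, so the groups overlapped. The log2 fold change was 0.62 (SE 0.30, adjusted p = 0.250, edgeR) and fell to 0.29 (SE 0.26, adjusted p = 0.602) without mutant 2. Hbb-bh1, the other embryonic beta-type gene, had 3437, 8327, 2817, 3921 and 6020 CPM in the controls. Its mutant levels ran from 4093 CPM to a median of 6591 CPM and a highest value of 13596 CPM, and the order of the libraries was much as for Hbb-y. The log2 fold change of Hbb-bh1 was 0.59 (SE 0.29, adjusted p = 0.267, edgeR), and 0.30 (SE 0.28, adjusted p = 0.608) without mutant 2.

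Hba-x encodes the embryonic zeta chain, the partner of the embryonic beta-type chains. Control levels of Hba-x were 4125, 9932, 3618, 4499 and 6504 CPM. In mutants Hba-x was lowest at 4748 CPM, had a median of 7318 CPM and was highest at 15640 CPM. Once more mutant 2 was highest and control 2 next, and the groups overlapped. The log2 fold change was 0.54 (SE 0.28, adjusted p = 0.298, edgeR) with all libraries and 0.25 (SE 0.26, adjusted p = 0.663) without mutant 2.

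**Figure D1:**
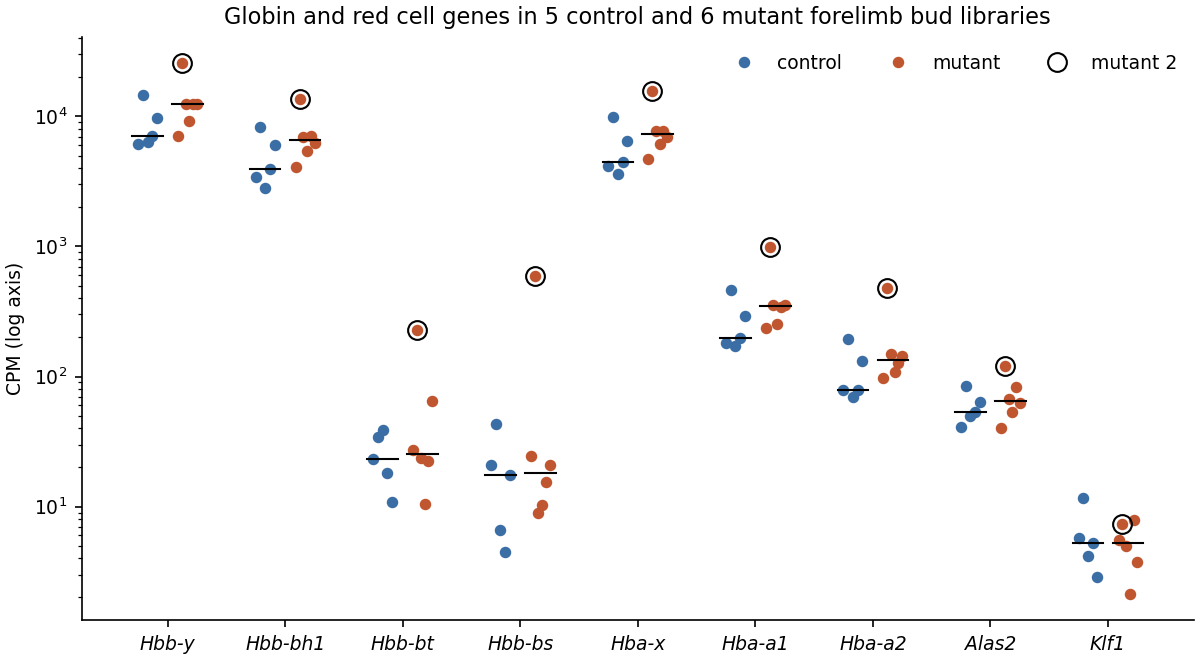
Level of each of the 9 genes in the 5 control (blue) and 6 mutant (orange) libraries, in CPM on a log axis; each point is 1 library, bars are group medians and a ring marks mutant 2. Control and mutant points overlap for each gene, and mutant 2 is the highest library for 8 of the 9, with its widest gap to the rest at Hbb-bs (590.6 CPM).

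The adult alpha genes followed the embryonic ones at a far lower level. Hba-a1 was at 181, 461, 173, 197 and 292 CPM in controls 1 to 5, and in mutants ran from 238 CPM to a median of 347 CPM and a highest value of 988 CPM. Hba-a2 was at 78.7, 194, 69.2, 78.9 and 131 CPM in controls, and from 97.7 CPM to a median of 135 CPM and a highest value of 477 CPM in mutants. Control 2 was again above the 5 mutants other than mutant 2 for both genes. The log2 fold changes were 0.70 for Hba-a1 (SE 0.33, adjusted p = 0.241, edgeR) and 0.71 for Hba-a2 (SE 0.35, adjusted p = 0.269). Without mutant 2 they were 0.30 (SE 0.27, adjusted p = 0.607) and 0.23 (SE 0.27, adjusted p = 0.695). Hba-a1 had 2.07 to 2.68 times the counts of Hba-a2, a narrow range across the 11 libraries.

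The adult beta genes behaved differently. Hbb-bt had 23.2, 34.5, 38.7, 18.1 and 10.9 CPM in controls 1 to 5. Mutants 1 to 6 had 27.4, 226, 23.6, 10.46, 22.5 and 64.7 CPM. Mutants 2 and 6 were the 2 highest libraries, mutant 4 the lowest, and the group medians were close, at 23.2 CPM in controls and 25.5 CPM in mutants. Hbb-bs had 20.9, 42.9, 6.60, 4.47 and 17.5 CPM in controls and 24.7, 591, 8.93, 10.3, 15.6 and 21.0 CPM in mutants 1 to 6. Here mutant 2 was 13.8 times the next library, control 2, and the other libraries of both groups were mixed. The log2 fold change was 1.19 for Hbb-bt (SE 0.48, adjusted p = 0.182, edgeR) and 1.73 for Hbb-bs (SE 0.79, adjusted p = 0.233). Without mutant 2 the values were 0.38 (SE 0.22, adjusted p = 0.389) and 0.30 (SE 0.39, adjusted p = 0.741). The Hbb-bs to Hbb-bt ratio of counts ran from 0.171 in control 3 to 2.61 in mutant 2, which is far wider than the range of the adult alpha pair.

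Alas2 encodes the erythroid form of 5-aminolevulinate synthase, the rate-limiting enzyme of heme synthesis in red cells. Its levels were 40.7, 85.0, 49.9, 53.3 and 64.1 CPM in controls, and 39.9 CPM (lowest), 64.6 CPM (median) and 121 CPM (highest, mutant 2) in mutants. Mutant 1 was the lowest of the 11 libraries and control 2 the next highest after mutant 2. The log2 fold change was 0.29 (SE 0.25, adjusted p = 0.561, edgeR) and 0.0020 without mutant 2 (SE 0.22, adjusted p = 0.997), so the fitted difference of Alas2 came down to near 0 when that library was left out.

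Klf1, the erythroid transcription factor that binds CACCC boxes of the adult beta-globin promoter among others, was the least abundant of the 9. Controls 1 to 5 had 5.76, 11.6, 4.14, 5.23 and 2.87 CPM. Mutants 1 to 6 had 5.55, 7.41, 4.97, 2.14, 7.86 and 3.74 CPM. Control 2 was highest and mutant 4 lowest, and mutant 2 ranked 3 of 11. The log2 fold change was -0.02 (SE 0.27, adjusted p = 0.972, edgeR). Its sign changed with the scaling and with the libraries used.

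**Figure D2:**
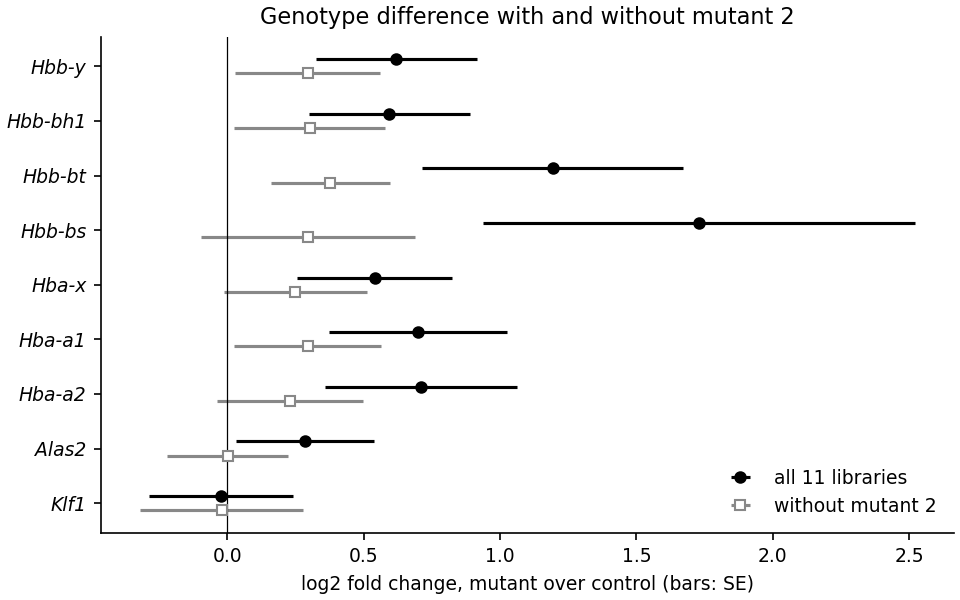
Log2 fold change of each of the 9 genes, mutant over control, with all 11 libraries (black) and without mutant 2 (open grey); bars are standard errors of the edgeR fit with litter as a block. The fitted values of the 7 globin genes lie between 0.54 and 1.73 with all libraries and between 0.23 and 0.38 without mutant 2.

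Per kilobase of exon, the order of the control medians was Hbb-y (10788 CPM per kb), Hbb-bh1 (6386), Hba-x (4796), Hba-a1 (242), Hba-a2 (118), Hbb-bt (33.0), Alas2 (22.2), Hbb-bs (20.3) and Klf1 (3.41). The control ranges of neighbours in this order overlapped except in 2 places: Hba-x (3858 to 10588 CPM per kb) lay wholly above Hba-a1 (213 to 568), and Hba-a2 (104 to 291) wholly above Hbb-bt (15.5 to 55.0). Hbb-bs spread most for its level, from 5.18 to 49.8 CPM per kb, and reached into the range of Klf1 (1.87 to 7.58). Beta-type globins exceeded alpha-type globins per exon base by 3.11 to 3.64 times in the 11 libraries. That ratio varied far less than the level of any globin gene.

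The 7 globin genes together held 1.42%, 3.30%, 1.34%, 1.58% and 2.20% of all counts in controls 1 to 5. In mutants 1 to 6 they held 1.69%, 5.44%, 2.76%, 2.09%, 2.76% and 2.73%. The Wilson 95% intervals reached at most 0.0112 percentage points to either side and cover counting error only. Control 2 had a larger share than 5 of the 6 mutants, and the groups overlapped. The mean share was 1.97% ± 0.817 (SD, n = 5) in controls and 2.91% ± 1.32 (SD, n = 6) in mutants. The mean log2 difference was 0.55, close to the pooled SD between libraries of 0.56 on the log2 scale, and 0.35 without mutant 2. Within litters A, B, C and D the log2 difference was 0.49, 1.03, 0.81 and 0.13, positive in each of the 4, although mutant 4 was below control 5 in litter D and mutant 1 below control 2 in litter A. The positive value in litter A rests on mutant 2 (5.44%). Mutant 1 (1.69%) was below the mean of control 1 (1.42%) and control 2 (3.30%).

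**Figure D3:**
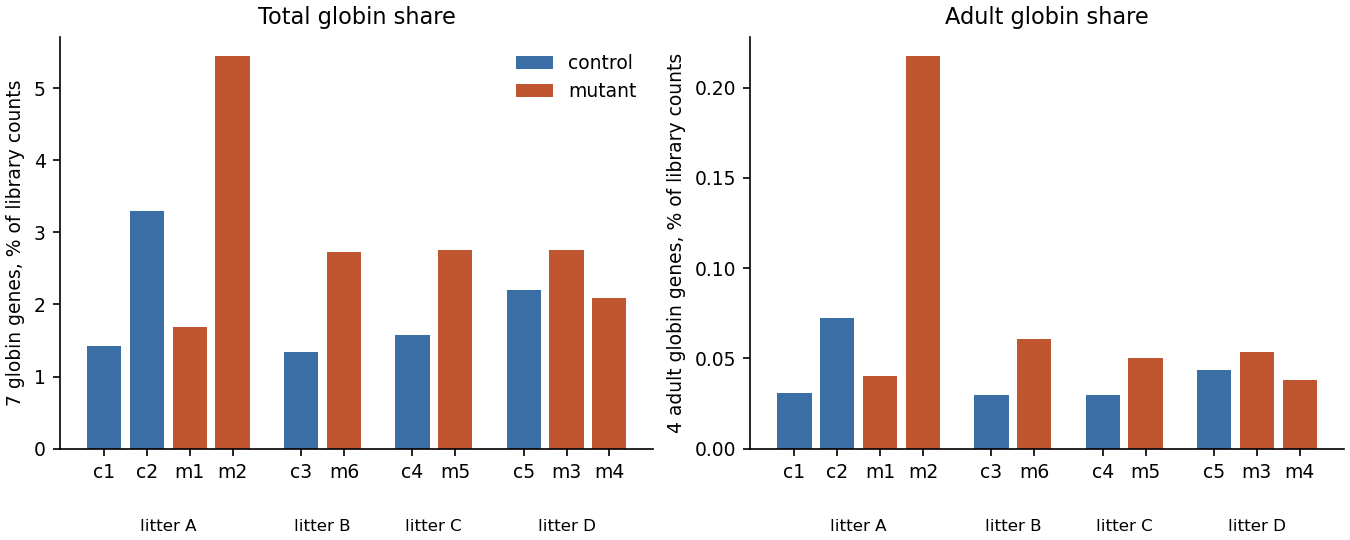
Share of library counts in the 7 globin genes (left) and in the 4 adult globin genes (right), in percent, with 1 bar per library grouped by litter (c, control; m, mutant). The total share is 1.34% to 3.30% outside mutant 2, which reaches 5.44%, and the adult share of mutant 2 (0.217%) is above the other 10 libraries (0.0295% to 0.0721%).

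The embryonic to adult ratio did not separate the genotypes. Counts of Hbb-y, Hbb-bh1 and Hba-x over those of the 4 adult genes gave 45.1, 44.7, 44.3, 52.1 and 49.5 in controls 1 to 5. Mutants 1 to 6 gave 41.2, 24.1, 50.5, 54.1, 54.0 and 44.1. Apart from mutant 2, libraries of litters A and B lay at 41.2 to 45.1 and those of litters C and D at 49.5 to 54.1, with controls and mutants side by side in each range. The mean log2 difference between genotypes was -0.12 beside a pooled SD of 0.34 on the log2 scale, and 0.04 without mutant 2. Within litters the log2 difference was -0.51 in A, -0.0083 in B, 0.05 in C and 0.08 in D. The division by litter was noticed in these values and has no test of its own.

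Beta-type genes alone showed the litters more sharply. The ratio of Hbb-y and Hbb-bh1 to Hbb-bt and Hbb-bs was 217, 295 and 216 in control 1, control 2 and mutant 1 of litter A, and 202 and 219 in control 3 and mutant 6 of litter B. It was 489 and 513 in control 4 and mutant 5 of litter C, and 556, 597 and 702 in control 5, mutant 3 and mutant 4 of litter D. Mutant 2 was at 48.0, well below its litter. In each of the litters B, C and D, control and mutant libraries were closer to each other than the range of litters A and B was to that of C and D. As a share of beta-type counts, the adult genes made up 0.338% to 0.494% in litters A and B without mutant 2, 0.142% to 0.204% in litters C and D, and 2.04% in mutant 2. The Wilson 95% half-width of these shares was at most 0.0356 percentage points.

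Among single genes, edgeR's test on the 3 litter coefficients called 14 genes in all (0.0885%) and none of the 9. Its unadjusted p was under 0.05 for 3 of the 9, Hbb-bs (0.0054), Hbb-bt (0.011) and Klf1 (0.017), beside 13.5% of all genes. The lowest adjusted p was 0.188. The genotype by litter interaction called 0 genes by edgeR, with 605 genes and none of the 9 at an unadjusted p under 0.05. DESeq2 and limma-voom were not run for these terms.

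**Figure D4:**
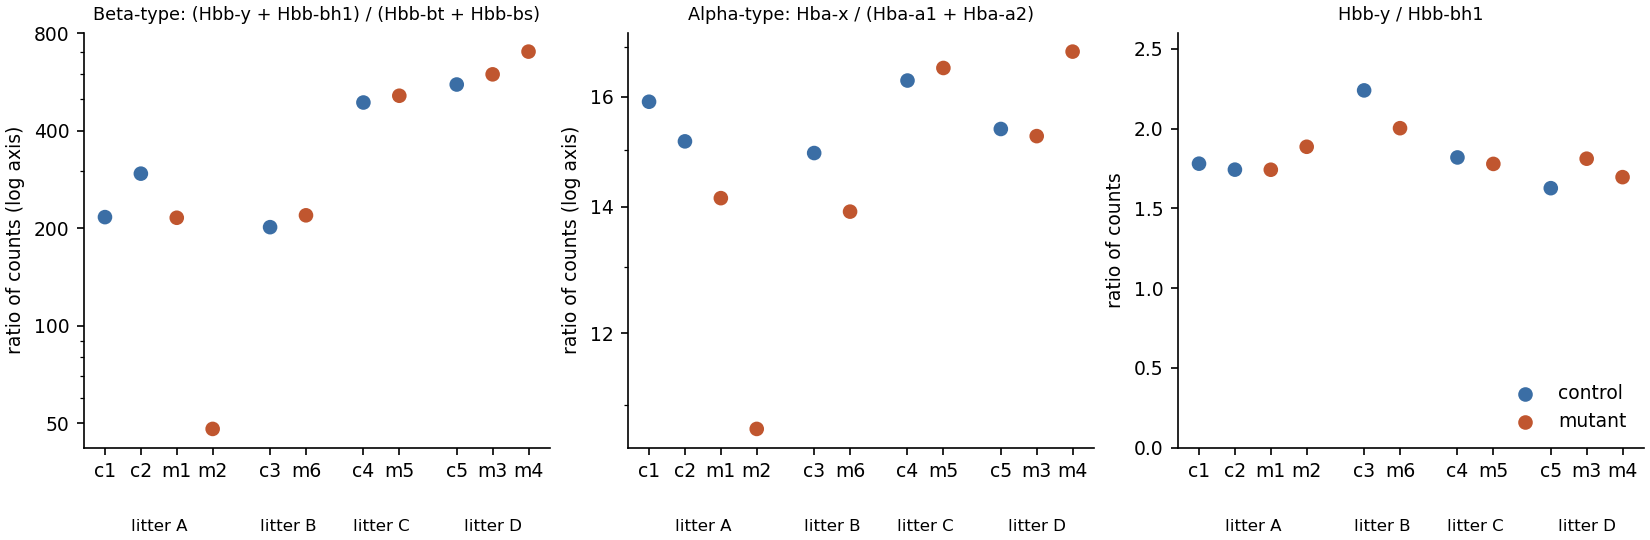
Embryonic to adult ratio of beta-type (left) and alpha-type (middle) globin counts on log axes, and Hbb-y to Hbb-bh1 ratio (right) on a linear axis, with 1 point per library grouped by litter (c, control; m, mutant). The beta-type ratio is 202 to 295 in litters A and B apart from mutant 2 (48.0) and 489 to 702 in litters C and D, whereas the Hbb-y to Hbb-bh1 ratio is highest in litter B (2.24 and 2.002).

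Alpha-type genes showed a smaller spread. Hba-x over Hba-a1 and Hba-a2 was 13.9 to 15.9 in litters A and B without mutant 2 and 15.3 to 16.9 in litters C and D, so these ranges met, and mutant 2 was again lowest at 10.7. The Hbb-y to Hbb-bh1 ratio of counts, which compares the earlier and later embryonic beta-type genes, had another order. It was 2.24 in control 3 and 2.002 in mutant 6, both of litter B, and 1.63 to 1.89 in the libraries of litters A, C and D. Mutant 2, at 1.89, was next after litter B. The ratio of genotype means was near 1: 1.84 ± 0.234 (SD, n = 5) in controls and 1.82 ± 0.110 (SD, n = 6) in mutants.

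Relative to globin, Klf1 was not constant. Per 10000 globin counts there were 4.12, 3.47, 3.18, 3.30 and 1.26 Klf1 counts in controls 1 to 5 and 3.39, 1.30, 1.79, 1.01, 2.83 and 1.42 in mutants 1 to 6. Litter D was low in both genotypes, at 1.01 to 1.79, and mutants 2 and 6 were also below 2. Alas2 was steadier, at 21.1 to 38.3 counts per 10000 globin counts, with control 3 highest and mutant 2 lowest. Its mean was 30.9 ± 5.10 (SD, n = 5) in controls and 24.7 ± 2.85 (SD, n = 6) in mutants, and the log2 difference was -0.26, -0.69, -0.17 and -0.19 in litters A to D, negative in each of the 4. This ratio has no test.

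Mutant 2 exceeded the median of the other 10 libraries 2.70-fold for Hbb-y, 2.38-fold for Hbb-bh1 and 2.48-fold for Hba-x. For the adult genes the factor was 3.61 for Hba-a1, 4.07 for Hba-a2, 9.65 for Hbb-bt and 35.7 for Hbb-bs. It was 2.08 for Alas2 and 1.45 for Klf1. The adult beta genes thus stood furthest out, and the excess was uneven among the genes. Genes of the tissues around the embryo were examined after these values had been seen, in 3 added lists. Because the lists were chosen with values known, the counts of list genes highest in mutant 2 are no test. The share of all genes highest in mutant 2 is not given here. Of 12 genes of decidua and uterus, 9 were highest in mutant 2, the exceptions being Cryab, Tdo2 and Pgr, and their summed level was 822 CPM there beside 21.8 to 48.9 CPM in controls and 20.3 to 33.7 CPM in the other mutants. Prl8a2, a prolactin family gene of the decidua, was at 380 CPM in mutant 2 and 0.232 to 5.74 CPM elsewhere. The excess was uneven: Wnt4 was at 11.2 CPM in mutant 2 and up to 9.49 CPM elsewhere. Prl3c1 had reads in mutant 2 only, and there a count of 2 (0.132 CPM).

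The 10 trophoblast genes summed to 12.8 CPM in mutant 2, to 0.763 to 4.17 CPM in controls and to 1.88 to 7.24 CPM in the other mutants, with 3 of 10 highest in mutant 2. Psg21 had no reads in any library. The 12 yolk sac endoderm and liver genes summed to 108 CPM in mutant 2, 6.16 to 73.0 CPM in controls and 8.06 to 18.4 CPM in the other mutants, with 6 of 12 highest in mutant 2. Their next highest library was control 3, where Hbb-bs was at 6.60 CPM, Hbb-bt at 38.7 CPM, the highest control, and the adult share of beta-type counts at 0.494%, the highest outside mutant 2. The part of these tissues in the globin values of mutant 2 was not tested.

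**Figure D5:**
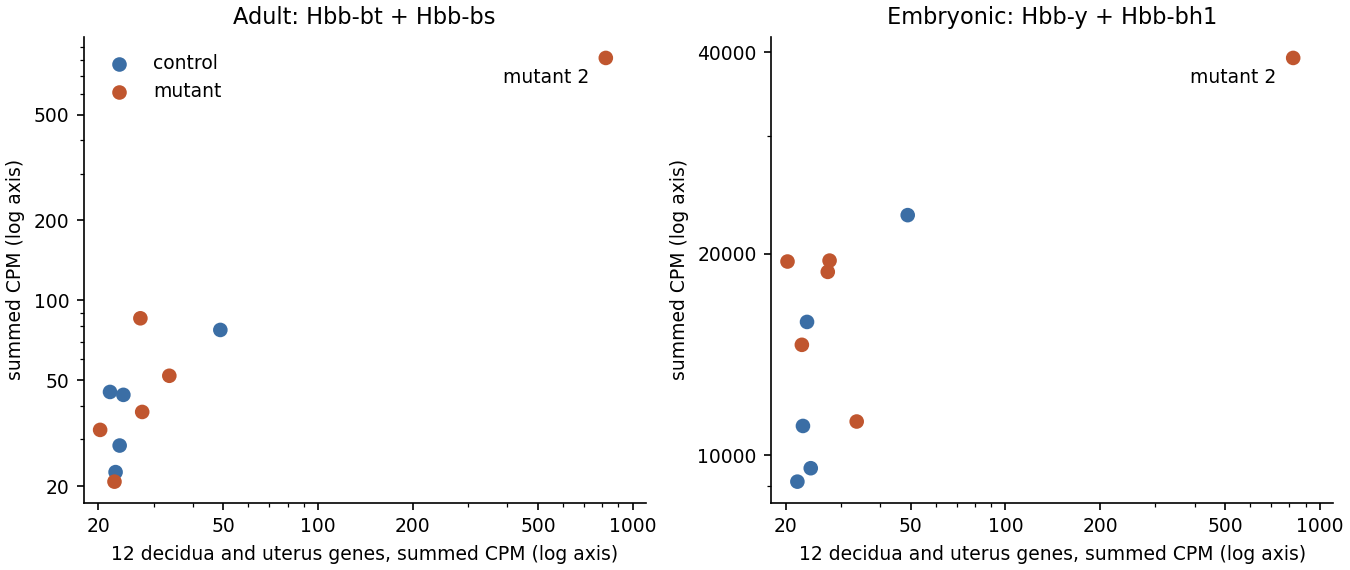
Summed level of the adult beta genes (left) and of the embryonic beta-type genes (right) against the summed level of 12 decidua and uterus genes, in CPM on log axes, with 1 point per library (blue, control; orange, mutant). Mutant 2 lies apart at 822 CPM of decidua and uterus genes, beside 20.3 to 48.9 CPM in the other 10 libraries. The list of decidua and uterus genes was added after the values were seen.

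Other red cell genes were followed in lists chosen by function. Of 8 further heme synthesis genes none passed the test (edgeR, lowest adjusted p = 0.130). At an unadjusted p under 0.05, Cpox was higher in mutants and Alas1 and Ppox lower, beside 21.4% of all genes in either direction. Alad and Urod, which encode enzymes of the pathway, were among the most abundant. Alad was at 211 ± 46.2 CPM in controls (SD, n = 5) and 239 ± 38.9 CPM in mutants (SD, n = 6), and Urod at 193 ± 19.1 and 215 ± 24.7 CPM. The median log2 fold change of the list was 0.14. These enzymes also serve heme synthesis outside red cells.

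Of 15 erythroid regulators none passed by edgeR, and none had an unadjusted p under 0.05 (median log2 fold change 0.09). Ldb1, a cofactor that links Gata1 and Tal1 complexes, was at 64.3 ± 6.13 CPM in controls and 72.7 ± 10.8 CPM in mutants. Klf3 and Nfe2l1 were the next in level, at 31.1 ± 1.72 and 31.8 ± 4.12 CPM in controls and 34.0 ± 1.75 and 30.4 ± 3.02 CPM in mutants. Of 20 membrane and skeleton genes none passed by edgeR (lowest adjusted p = 0.190), while Rhd, Kel and Ermap, which encode blood group antigens, had an unadjusted p under 0.05 and higher values in mutants, which is 3 of 20 beside 21.4% of all genes. Epb41 was at 79.3 ± 6.32 CPM in controls and 74.0 ± 4.62 CPM in mutants, and Gypc at 55.4 ± 7.79 and 51.9 ± 4.23 CPM. The median log2 fold change of this list was 0.30.

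Of 22 iron, enzyme and stability genes, 19 were tested and none passed by edgeR (lowest adjusted p = 0.0844). At an unadjusted p under 0.05, 2 were higher and 3 lower in mutants, beside 21.4% of all genes in either direction. The median log2 fold change of the list was 0.09. DESeq2, which called 7.55% of all genes, called 2 of the 19, Gpx1 (log2 fold change 0.32, adjusted p = 0.0387) and Cat (-0.27, adjusted p = 0.0282), which encode the peroxide-removing enzymes glutathione peroxidase and catalase. By edgeR Gpx1 was at 943 ± 152 CPM in controls and 1191 ± 201 CPM in mutants (adjusted p = 0.114). Prdx2, another peroxidase gene, was at 1466 ± 91.7 and 1628 ± 162 CPM, and Car2, a carbonic anhydrase gene, at 317 ± 108 and 376 ± 131 CPM. Ahsp, the alpha-globin chaperone, was not analysed here. Of 9 further globin names 2 were tested, Hbq1b at 3.55 ± 1.48 CPM in controls and 5.13 ± 2.20 CPM in mutants and Hbb-bh0 at 0.891 ± 0.400 and 0.906 ± 0.413 CPM, and neither passed by edgeR.

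Summed over each of the 4 red cell lists, mutant 2 was the highest library. These sums rest largely on a few abundant genes. In the iron, enzyme and stability list most of the 4982 CPM of mutant 2 came from Prdx2 (1919 CPM) and Gpx1 (1572 CPM). Markers of other cell types were summed in the same way over the genes tested. The 9 platelet genes tested summed to 76.7 CPM in mutant 2 and to 25.1 to 90.5 CPM in controls, and the 12 macrophage genes to 58.3 CPM in mutant 2 beside 8.06 to 44.6 CPM in controls and a highest mutant value of 60.4 CPM in mutant 6. The 12 endothelium genes summed to 253 CPM in mutant 2, the lowest of the 11 libraries, where controls had 254 to 399 CPM. The median log2 fold change was 0.18 for platelet, 0.69 for macrophage and 0.09 for endothelium genes, with 11 of 12 macrophage genes above 0, and mutant 2 ranked 2 of 11 for the platelet and macrophage sums. None of these genes passed the test by edgeR, with Tyrobp of the macrophage list nearest (log2 fold change 1.51, SE 0.38, adjusted p = 0.0555). At an unadjusted p under 0.05, 1 platelet gene was lower and 2 macrophage genes (Tyrobp and C1qb) higher in mutants, with 0 endothelium genes. These counts, of 9 platelet, 12 macrophage and 12 endothelium genes, stand beside 21.4% of all genes in either direction. The part of these cell types in the globin values was not tested. Pf4 of platelets was at 30.0 ± 13.8 CPM in controls and 31.5 ± 11.1 CPM in mutants, and Emcn of endothelium at 66.8 ± 17.3 and 66.5 ± 10.6 CPM.

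The levels of the embryonic and adult alpha globins rose and fell together over the 11 libraries. Pearson's r of each gene's log2 CPM with the sum of the other globins was 0.972 to 0.994 for Hbb-y, Hbb-bh1, Hba-x, Hba-a1 and Hba-a2. It was 0.934 for Alas2, 0.768 for Hbb-bs, 0.590 for Hbb-bt and 0.389 for Klf1. Without mutant 2 it was 0.456 for Hbb-bs and 0.0809 for Hbb-bt, so the adult beta genes followed the other globins mainly through that library. These values describe 11 libraries that share litters and a scaling.

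The 10 other genes whose level was most like that of the summed globins had r of 0.924 to 0.979 over the 11 libraries. They included Blvrb (0.979), Acp5 (0.972), Cpox (0.963), Car2 (0.958), Sptb (0.936), Treml2 (0.929), Mgst3 (0.929) and Renbp (0.924), and 5 of the 10 stood in the red cell lists. Without mutant 2 their r was 0.856 to 0.959. Blvrb encodes a biliverdin reductase and Sptb the erythroid beta spectrin. For the embryonic to adult ratio, Chd1 (0.949), Surf4 (0.938), Efnb2 (0.928) and Pcolce2 (0.920) were among the most alike. Without mutant 2 their r was 0.833, 0.776, 0.853 and 0.716. Ctla2a (-0.948), RP23-181P23.4 (-0.928), Cish (-0.921), Vtn (-0.920) and A2m (-0.916) were most opposite. Without mutant 2 the r of Cish, a cytokine-induced inhibitor of Stat5 signalling, was -0.965. It was -0.411 for A2m, -0.575 for Vtn, -0.630 for Ctla2a and -0.656 for RP23-181P23.4. The genes named were picked as extremes of all genes compared, and their r have no test. Ctla2a and A2m also stood in the list of decidua and uterus, which was added after the values were seen. Each was highest in mutant 2, the library with the lowest ratio, so this overlap is not independent.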

How the data were processed

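The authors deposited raw read counts per gene name, made with featureCounts v1.4.6-p4 on mm10 with GENCODE M9 and a mapping quality of at least 10, per the file headers. STAR 2.5.4b is named in the submitters' processing notes. The header command sets no option for strand, read pairs or multi-mapping reads.

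Counts were analysed in R 4.3.3 with edgeR 4.0.16: filterByExpr (15821 genes, 99.9% of counts), TMM scaling, and a two-sided quasi-likelihood F test with litter as a block and Benjamini-Hochberg adjustment over all genes tested (threshold 0.05). CPM use TMM-scaled totals. Fold changes are mutant over control. Shares and ratios use raw counts, have no test, and are compared as differences of mean log2 values. Likeness used log2 of CPM plus 0.5. The script was tested on simulated data.

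The 9 genes and all lists were chosen with earlier results of these data known, and 3 further lists (decidua and uterus, trophoblast, yolk sac endoderm and liver) after the values were seen. The genes named were Gmnn, the 9 genes, from each list those with adjusted p under 0.05 (up to 4) and the 3 highest in mean CPM, and the 10 genes most like the summed globins and 5 at each end for the ratio, leaving out predicted genes. Some genes that this rule names are not reported here. Other names (marker genes, list genes with unadjusted p under 0.05, and genes of the added lists) were chosen after their values were seen.

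Litters come from the sample titles, and the design text states litter-matched pairs. As a check, deviations from the group means correlated with a median of 0.13 over 8 same-litter pairs and -0.0199 over 22 others. Over 25 within-group pairs the chi-square divided by its degrees of freedom was at least 6.82, so no pair was counted as 1 sample. The labels number separate embryos, and p-values measure the spread between them. Alternatives were RLE and upper-quartile scaling, 2 other filters, DESeq2 1.42.0, limma-voom (limma 3.58.1), no block, totals without globin, mitochondrial and ribosomal RNA genes, other denominators and gene sets for the share and ratio, and each library and litter left out in turn.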

Additional observations from a re-analysis of the deposited data

Results flagged for a closer look

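Each group's highest and lowest library was compared with its neighbours by Dixon's gap at the 95% level, over 76 comparisons, and 5 stood out. About 1.9 groups would do so by chance at 1 in 20. On the log2 CPM scale mutant 2 was far above the other mutants for Hbb-bs (9.206, or 590.6 CPM), Hba-a1 (9.948) and Hba-a2 (8.897). Its embryonic to adult globin ratio was far below that of the other mutants (24.05, or 4.588 on the log2 scale). Control 5 was far below the other controls in Klf1 counts per 10000 globin counts (1.262, or 0.3356 on the log2 scale).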

How the results depend on the processing

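None of the 9 genes was called in 22 of 23 alternatives. The exception was the fit with no filter on low counts, which called 8 of 9, 9 red cell list genes and 1566 genes in all (5.35% of 29256). It also called 8 of 9 for litter and 5 of 9 for the interaction. The shares of all genes called for litter and for the interaction without the filter are not given here, so these counts have nothing to be set against. In that fit the spread of all genes was shrunk to the common trend (infinite prior degrees of freedom, beside 6.15 with the filter). The 345 calls over all genes became 550 with the filter of 1 CPM, 1194 with DESeq2, 16 with no replicate block and 1 to 850 with a library left out (850 without control 5, 279 without mutant 2). They became 9, 3, 1 and 148 without litters A, B, C and D. Red cell list calls were 2 with DESeq2 and 0 to 1 with a library left out (1 without control 5). Without the replicate block 0 of the 9 genes were called. Klf1 changed sign, to 0.016 with upper-quartile scaling, 0.26 without litter A and 0.0058 without litter B, and ran from -0.17 to 0.23 with a library left out (adjusted p 0.638 to 0.994, edgeR). The log2 difference in globin share (0.55) moved by less than the pooled SD of 0.56, to between 0.35 and 0.76. With Alas2 and Klf1 in place of the globins it was 0.21. The log2 difference in embryonic to adult ratio (-0.12) moved by less than its pooled SD of 0.34, to between -0.25 and 0.06. It was positive without mutant 2 (0.04). Adult copies could not be separated over most of their length, and Klf1 had 36 to 226 counts per library.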
